A study of Mus musculus with 13 samples.

Results

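The 9 genes described here carry the interferon signal from the cell surface to the genome. They are the receptor chains Ifnar1 and Ifnar2, the kinases Jak1 and Tyk2, the transcription factor Stat2 and the interferon regulatory factors Irf1, Irf3, Irf7 and Irf9. They were picked by name from a table of 23236 gene rows, and each name matched 1 row. The cells were C2C12, a line of mouse myoblasts, which divide in rich serum and can form myotubes. The series has 13 samples, 4 of RNA-seq and 9 of ChIP-seq, and 2 of them, both RNA-seq of poly(A)-selected RNA from myoblasts, are used here. One library is labelled siNC, by the usual reading of the name a control siRNA, and the other siLinc-Yy1, an siRNA against the long noncoding RNA Linc-Yy1. The labels used here name neither the dose nor the duration of the siRNA treatment. With 1 library per condition there is no spread between replicates, so each difference below describes a pair of libraries and carries no p-value computed here.

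Type I interferons bind a receptor made of Ifnar1 and Ifnar2, which brings together the bound kinases Tyk2 and Jak1. The kinases phosphorylate Stat proteins. Stat2 and Irf9 are parts of a complex that binds the interferon-stimulated response element (ISRE) in promoters of antiviral genes. Other Stat dimers bind the gamma-activated site (GAS), for example in the Irf1 gene. Irf3 is present before any infection and is activated by nucleic acid sensors, whereas Irf7 is itself a product of the interferon response and amplifies it. Several of these factors are thus both carriers of the signal and interferon-inducible genes.

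The promoter windows of the members were searched for both elements, because these sequences are where the described factors bind. The windows, from RefSeq (build GRCm38.p6), run from 250 bases before to 50 bases after a start site; bases are counted from 1 at the printed 5′ end. All 9 members had a window, 11 in all. The ISRE was searched as GAAA, 2 bases of any kind and GAAA again, and the GAS as TTCNNNGAA, both on either strand. Below, the letters in capitals are the matches, and the rest is in lower case. The windows shown are those of Stat2 and its partner Irf9, of Irf1, and of Ifit3, an antiviral target gene. Irf9 and Irf1 have 2 windows each, of which the first by position is shown. The second Irf1 window (chr11:53770223-53770522) and the second Irf9 window held neither element.

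Stat2, chr10:128270248-128270547, plus strand: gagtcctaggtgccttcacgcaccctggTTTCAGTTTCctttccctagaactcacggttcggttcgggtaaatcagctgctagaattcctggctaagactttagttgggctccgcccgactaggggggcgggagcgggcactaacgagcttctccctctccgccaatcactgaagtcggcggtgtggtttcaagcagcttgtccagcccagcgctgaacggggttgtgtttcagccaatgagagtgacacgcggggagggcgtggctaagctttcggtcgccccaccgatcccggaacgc

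Irf9, chr14:55603735-55604034, plus strand: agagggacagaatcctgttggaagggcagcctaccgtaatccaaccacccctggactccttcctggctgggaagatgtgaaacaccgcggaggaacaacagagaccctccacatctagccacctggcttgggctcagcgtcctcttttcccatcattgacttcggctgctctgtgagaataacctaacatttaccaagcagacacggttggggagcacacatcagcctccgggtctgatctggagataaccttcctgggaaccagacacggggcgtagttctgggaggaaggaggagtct

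Irf1, chr11:53769764-53770063, plus strand: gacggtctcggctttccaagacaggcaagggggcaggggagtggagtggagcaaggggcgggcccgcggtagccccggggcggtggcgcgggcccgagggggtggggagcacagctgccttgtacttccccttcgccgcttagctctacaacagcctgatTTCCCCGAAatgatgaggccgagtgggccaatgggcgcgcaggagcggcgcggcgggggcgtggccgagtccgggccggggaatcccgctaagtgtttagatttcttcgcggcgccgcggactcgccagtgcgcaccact

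Ifit3, chr19:34583279-34583578, plus strand: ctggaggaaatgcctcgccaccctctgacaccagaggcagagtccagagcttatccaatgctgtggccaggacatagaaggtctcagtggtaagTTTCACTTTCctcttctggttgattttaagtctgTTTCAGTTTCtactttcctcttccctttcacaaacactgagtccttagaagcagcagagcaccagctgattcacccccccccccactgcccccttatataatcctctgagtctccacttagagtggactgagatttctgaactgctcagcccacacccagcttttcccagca

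Among the members, the ISRE letters were found only in the Stat2 window, as TTTCAGTTTC on the printed strand from base 29 to base 38. The same 10 letters stand in the Ifit3 window from base 129 to base 138, where a second match, TTTCACTTTC, begins at base 95. The GAS letters were found in 3 members. Irf1 held TTCCCCGAA from base 161 to base 169, Ifnar2 TTCCTGGAA from base 37 to base 45, and Ifnar1 TTCACGGAA from base 246 to base 254, across its start site. The windows of Irf3, Irf7, Irf9, Jak1 and Tyk2 held neither. Of all 27025 genes in the RefSeq table, 3.99% held the ISRE letters and 9.55% the GAS letters in at least 1 window, and of the 32851 windows 3.44% and 8.30%. None of the windows printed held both elements. A match describes the letters only and is not shown to be a bound site.

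The cells carried the markers of myoblasts in both libraries. All 8 myoblast markers listed passed a mean of 1 FPKM (fragments scaled to transcript length and to library size, the authors' unit of expression). The highest was Des, the muscle intermediate filament protein, at 322 FPKM in siNC against 487 FPKM in siLinc-Yy1, and the lowest was Pax7, a satellite cell factor, at 2.77 and 2.38 FPKM. Of 8 leukocyte markers only Cd68 passed, at 4.48 and 4.43 FPKM. The 8 summed to 5.44 FPKM in siNC against 5.47 FPKM in siLinc-Yy1, and Emr1 was listed at 0 in siLinc-Yy1. Of 5 endothelial markers none passed (sums of 0.370 and 0.494 FPKM), and of 4 adipocyte markers only Fabp4 did (sums of 1.73 and 1.66 FPKM), with Cidec listed at 0 in both. The targeted transcript, the row lincYy1, measured 0.360 FPKM in siNC against 0.227 FPKM in siLinc-Yy1, with a q-value of 0.878 in the authors' deposited table. At so low a level and with 1 library this is a weak check of the label. In a bulk library, fewer cells expressing a gene and less RNA per cell cannot be told apart.

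All 9 members were expressed in both libraries, at 6.80 to 38.6 FPKM in siNC and 7.30 to 40.1 FPKM in siLinc-Yy1, and all passed the filter in each. None differed by 1.5-fold between the libraries. The extremes were Stat2, at 0.813 times its siNC level in siLinc-Yy1, and Ifnar2, at 1.17 times. Differences are given on the log2 scale after 1 FPKM was added to each value, siLinc-Yy1 relative to siNC, called the log2 ratio below. A gene counted as higher or lower when this reached 1.5-fold. Of 11792 rows with a mean of at least 1 FPKM, 3.28% were higher and 0.517% lower by this rule, so 0 of 9 members in either direction is close to what that background gives. No member differed by 2-fold either, where 1.39% of rows were higher and 0.178% lower. The log2 ratios of the members ran from -0.29 to 0.22, a range that held 80.7% of all rows. Their median was 0.047, against -0.021 over all rows. The authors' deposited table called no member either, against 1.29% of its rows with status OK called higher and 0.327% called lower.

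**Figure D1:**
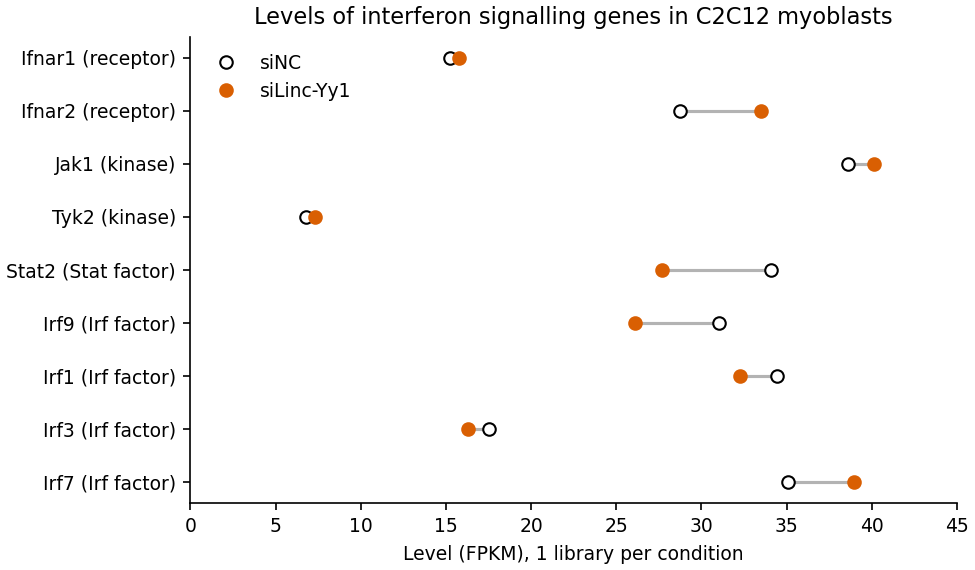
Level of each of the 9 signalling genes in FPKM (horizontal axis), with an open circle for the siNC library and a filled circle for the siLinc-Yy1 library, 1 library each. Stat2 (34.1 and 27.7 FPKM) and Irf9 (31.0 and 26.1 FPKM) lie lower in siLinc-Yy1, Ifnar2 (28.7 and 33.5 FPKM) and Irf7 (35.1 and 38.9 FPKM) lie higher, and Tyk2 is the least abundant in both.

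The receptor chains were both present. Ifnar1, the chain that binds Tyk2 (chromosome 16, 91485460 to 91510767, mm9), measured 15.2 FPKM in siNC against 15.8 FPKM in siLinc-Yy1, a ratio of 1.04. Ifnar2, the high-affinity chain that binds Jak1 (chromosome 16, 91373028 to 91405832), stood at 28.7 and 33.5 FPKM, a ratio of 1.17 and the highest of the 9. Ifnar2 thus stood above Ifnar1 in both libraries, by 1.89 times in siNC and 2.12 times in siLinc-Yy1.

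These genes sit side by side with other class II cytokine receptor genes. In mm9, Ifnar2 is followed after 647 bases by Il10rb, the shared chain of the interleukin-10 and interferon lambda receptors, and then come Ifnar1 and Ifngr2, a chain of the interferon gamma receptor. Il10rb measured 15.8 and 17.6 FPKM and Ifngr2 21.1 and 21.5 FPKM. These 4 neighbours had ratios of 1.02 to 1.17. Whether counting used strand is not stated in the sources at hand.

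The kinases lay far apart in level and close together in ratio. Jak1 was the most abundant member in both libraries, at 38.6 FPKM in siNC against 40.1 FPKM in siLinc-Yy1, a ratio of 1.04. Its locus in the table (chromosome 4, 100741643 to 100937887) also holds Raver2, at 0.0427 and 0.0986 FPKM, so the division of reads between these rows is the authors' estimate. Tyk2, which pairs with Ifnar1 (chromosome 9, 20908512 to 20935719), was the least abundant, at 6.80 and 7.30 FPKM, a ratio of 1.07. Jak1 stood 5.68 times above Tyk2 in siNC and 5.50 times in siLinc-Yy1.

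The components of the ISRE-binding complex had the lowest ratios of the 9. Stat2 (chromosome 10, 127707632 to 127729905), which brings the activation domain, measured 34.1 FPKM in siNC against 27.7 FPKM in siLinc-Yy1, and its log2 ratio was -0.29. Irf9 (chromosome 14, 56222822 to 56228867), which recognises the ISRE, measured 31.0 and 26.1 FPKM, with a ratio of 0.842 and a log2 ratio of -0.24. Relative to each other they were close in both libraries, with Stat2 at 1.10 times Irf9 in siNC and 1.06 times in siLinc-Yy1. Among all rows these log2 ratios lay at the 5.96th and the 9.66th percentile, inside the bulk of the distribution. In the authors' deposited table the q-values were 0.793 for Stat2 and 0.897 for Irf9. The Stat2 window above holds the ISRE letters and the Irf9 window does not.

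The other Irf factors went in both directions. Irf1 (chromosome 11, 53583516 to 53591876), an activator of MHC class I and antiviral genes, measured 34.5 FPKM in siNC against 32.3 FPKM in siLinc-Yy1, a ratio of 0.936. Irf3, the sensor-activated factor on chromosome 7 (52253018 to 52258218), stood at 17.5 and 16.3 FPKM, a ratio of 0.930. Irf7, the inducible amplifier on chromosome 7 (148449082 to 148452323), stood at 35.1 and 38.9 FPKM, a ratio of 1.11. Irf7 therefore did not share the lower values of Stat2 and Irf9. It stood at 1.03 times Stat2 in siNC and 1.41 times in siLinc-Yy1, and at 2.00 and 2.39 times Irf3.

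Since FPKM is scaled by transcript length, levels can be ordered between genes. In siNC the order from the top was Jak1, Irf7, Irf1, Stat2, Irf9, Ifnar2, Irf3, Ifnar1 and Tyk2. In siLinc-Yy1 it was Jak1, Irf7, Ifnar2, Irf1, Stat2, Irf9, Irf3, Ifnar1 and Tyk2, so Ifnar2 passed from rank 6 to rank 3 and no other pair of genes changed order. Irf7, Irf1 and Stat2 were neighbours in siNC at 35.1, 34.5 and 34.1 FPKM, and with 1 library there is no spread that could separate such neighbours. Against all rows past the filter, Jak1 lay at the 80.6th percentile of level in siNC and Tyk2 at the 29.0th.

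Approximate counting intervals of the ratio, at 1 kb counted for each transcript, left out 1 for 4 members, Stat2, Irf9, Irf7 and Ifnar2. Such intervals were not computed for the other rows, so the share of all rows that would leave out 1 is not known. The q-values of the authors' deposited test were 0.793 for Stat2, 0.897 for Irf9, 0.9998 for Irf7 and 0.958 for Ifnar2. The steps of FPKM at low values put the depth of siNC at 59.9 M fragments or more and that of siLinc-Yy1 at 42.9 M or more. At that depth, 1 kb of transcript at the level of Stat2 gives 2040 and 1188 fragments, and at the level of Tyk2, the lowest member, 407 and 313. Transcript lengths were not used here, so which intervals include 1 and which is the widest depend on the choice of 1 kb. Counting 1 kb of each transcript, exact binomial intervals (95%) of the ratio were 0.756 to 0.874 for Stat2 and 0.781 to 0.907 for Irf9. They were 1.04 to 1.18 for Irf7 and 1.09 to 1.25 for Ifnar2. The intervals of the other 5 members included 1, the widest being that of Tyk2 (0.924 to 1.25). None of the 9 reached 1.5-fold in either direction at the authors' scaling. The intervals rest on depths read from low values, of which 57.4% in siNC and 46.2% in siLinc-Yy1 were whole fragments within 0.02. They cover counting error only, and variation between cultures was not measured.

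**Figure D2:**
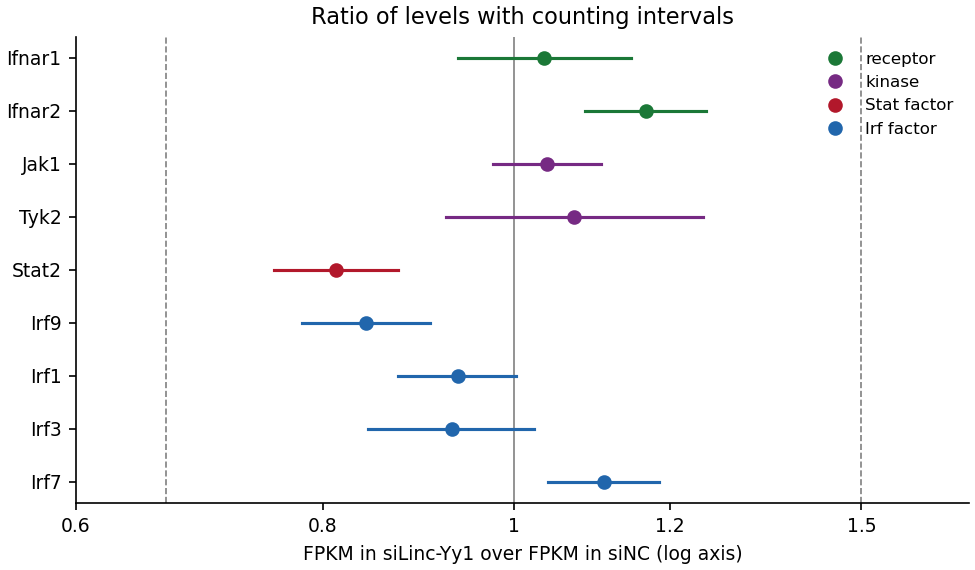
Ratio of FPKM in siLinc-Yy1 over siNC on a log axis, as a point for each of the 9 genes, with a bar for the 95% interval of counting error from 1 kb of transcript. Dashed lines mark 1.5-fold, which no bar reaches, and the bars of Stat2, Irf9, Irf7 and Ifnar2 do not cross 1.

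The direction of the small differences depends on how the libraries are scaled. The summed FPKM of siLinc-Yy1 was 1.25 times that of siNC. Rescaling to equal sums moved the median log2 ratio of all rows to -0.31 and the share of higher among changed rows from 86.4% to 27.2% (204 higher and 546 lower). Under that scaling all 9 members were below 0, with Ifnar2 at -0.097 and Irf7 at -0.17, but Stat2 (-0.60) alone passed 1.5-fold. Centring on the median row at the authors' scaling subtracts a constant, so it keeps the order of the members. It put Stat2 at -0.27, Irf9 at -0.22, Irf7 at 0.17 and Ifnar2 at 0.24. Stat2, Irf9, Irf1 and Irf3 were below 0 under all 8 alternatives tried. Of these, only equal sums, centring and subtraction of the trend could change a sign. Ifnar1, Ifnar2, Tyk2 and Irf7 were above 0 in all but equal sums, and Jak1 also turned (-0.0055) when the trend of ratio with level was subtracted.

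**Figure D3:**
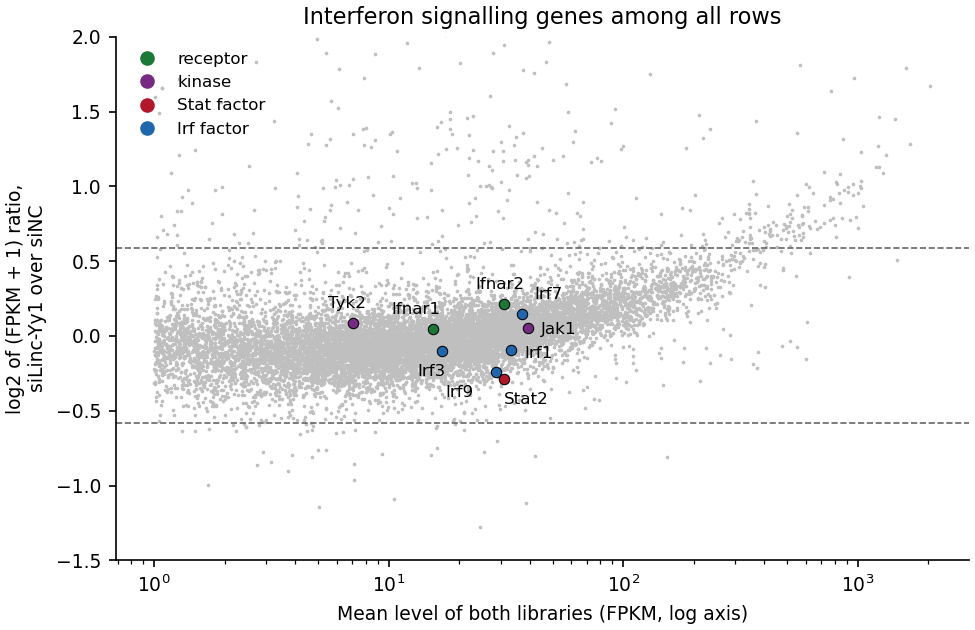
Log2 ratio against mean level of both libraries (FPKM, log axis) for the rows past the filter (grey, 45 of them outside the axis) and the 9 signalling genes (coloured by role), with dashed lines at 1.5-fold. The members lie at mean levels where most rows scatter around 0, below the abundant rows that bend upward, and none lies outside the grey cloud.

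**Figure D4:**
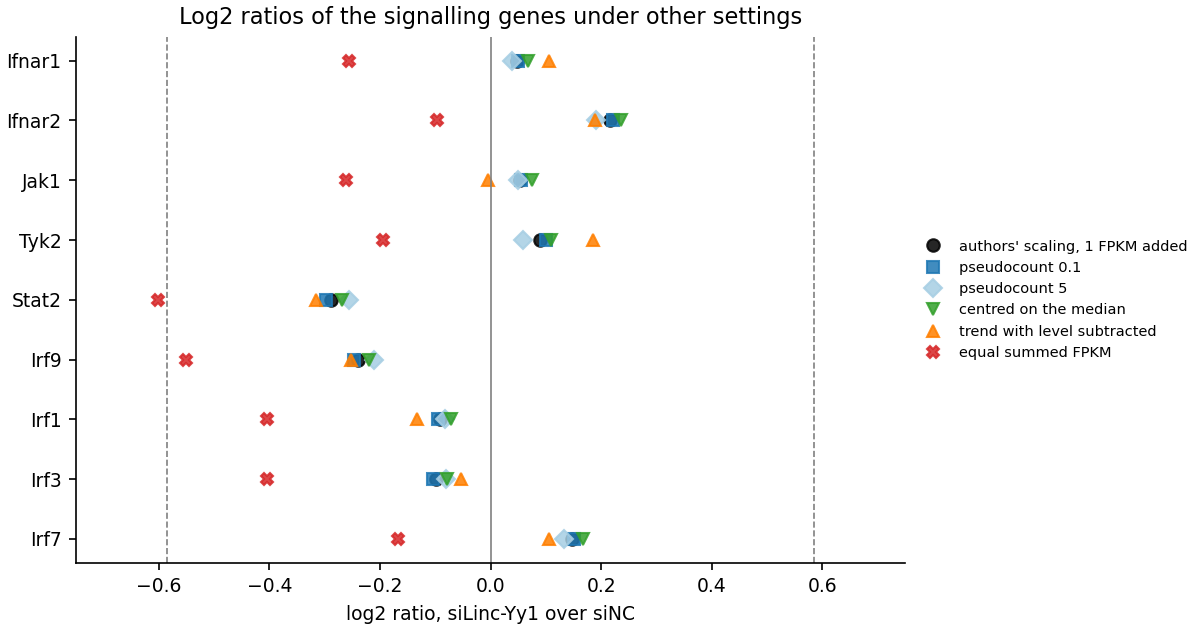
Log2 ratio of each of the 9 genes at the authors' scaling with 1 FPKM added (black circles) and under 5 other settings (other symbols), with dashed lines at 1.5-fold. Stat2 and Irf9 lie left of 0 under every setting shown, and rescaling to equal summed FPKM moves all 9 genes left, Stat2 to -0.60.

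The other genes of the pathway were listed by role, with the results of these data already known. Of 51 such genes past the filter, none was at least 1.5-fold higher and 1, Usp18, was lower, beside the 3.28% and 0.517% of all rows. No interferon gene passed. Of 21 ligands listed, 19 had a row, 4 of these (Ifna2, Ifna11, Il28a and Il28b) were listed at 0 in both libraries, and the highest was Ifnz at 0.744 and 0.646 FPKM. Ifnb1, the interferon that many cell types make first, stood at 0.0669 and 0.0313 FPKM. The receptor, kinase and factor genes of the pathway were thus expressed in myoblasts whose interferon rows were near 0.

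Among receptors outside the 9, 3 of 5 passed, none by 1.5-fold, with a median log2 ratio of 0.025. Ifngr1, the ligand-binding chain for interferon gamma, measured 17.9 and 17.2 FPKM. Both other Janus kinases passed. Jak2, which serves the interferon gamma receptor, measured 9.54 and 8.34 FPKM, and Jak3, a kinase of lymphocyte cytokine receptors, 2.19 and 2.25 FPKM. Of 6 other Stat genes 4 passed, 1 above 0 and 3 below, with a median of -0.11. The 1 above was Stat3, the main factor of interleukin-6 signalling, at 47.3 and 55.0 FPKM.

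Of 8 other Irf and Irf2-binding protein genes 7 had a row and 4 passed, with a median of -0.064. Irf2, an antagonist of Irf1, measured 15.0 and 13.2 FPKM, and Irf2bp2, a corepressor that binds it, 17.2 and 19.6 FPKM. Upstream of Irf3 and Irf7, 15 of 17 kinases and adaptors passed, 7 above 0 and 8 below, with a median of -0.029. They included Irak1 (30.7 and 32.9 FPKM) and Myd88 (19.2 and 17.5 FPKM), which serve Toll-like receptors, Chuk, an NF-kB kinase (13.1 and 11.2 FPKM), and the ubiquitin ligase Traf6 (5.79 and 4.86 FPKM). Tbk1, the kinase that activates Irf3, measured 17.8 and 18.5 FPKM, a gene chosen with its values in view.

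Of 15 negative regulators 14 passed, 7 above 0 and 7 below, with a median of -0.0041. Usp18, which displaces Jak1 from Ifnar2 and is itself interferon-induced, measured 23.2 FPKM in siNC against 15.0 FPKM in siLinc-Yy1, a ratio of 0.649. It lay at the edge of the rule (log2 ratio -0.59) and was not past it after centring on the median row. Socs1 and Socs3, feedback inhibitors of Janus kinases, measured 10.3 and 9.34 FPKM and 21.5 and 24.9 FPKM, both chosen with those values in view. All 9 coactivators and partners passed, none by 1.5-fold, with a median of 0.11. The chromatin remodeller Smarca4 (58.0 and 67.6 FPKM) was above 0, and the interferon-induced Ifi35 (45.9 and 38.6 FPKM) and the acetyltransferase Kat2b (10.1 and 8.38 FPKM) below.

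**Figure D5:**
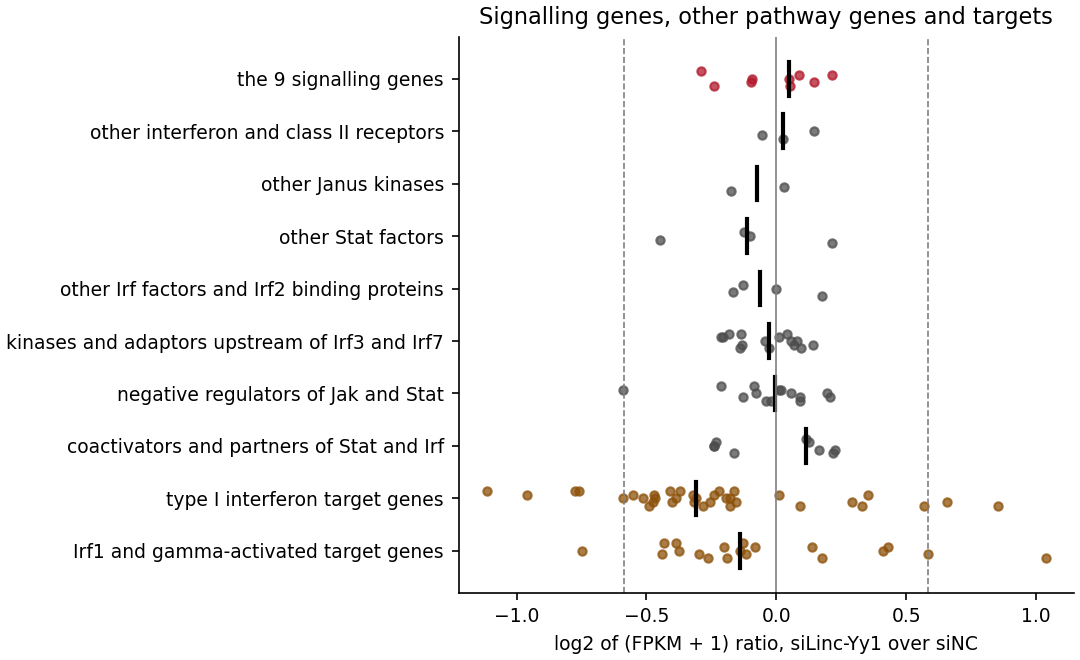
Log2 ratio of each gene past the filter (points) in the 9 signalling genes, the other pathway lists and the target lists, with the median of each list as a black bar and dashed lines at 1.5-fold. The signalling and pathway genes lie within 1.5-fold apart from Usp18, while the target lists spread from -1.12 (Ifit3) to 1.04 (B2m).

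The genes these factors act on covered a wider range of log2 ratios than the 9 signalling genes. Their lists also hold more genes, which widens a range, and no measure of spread was compared. Of 35 type I interferon target genes, all past the filter, 5 were at least 1.5-fold lower and 2 higher, beside 0.517% and 3.28% of all rows. The median log2 ratio was -0.31, beside -0.021 over all rows. In the list 27 genes were below 0 and 8 above. The split of all rows by sign was not counted, and no test of the list was run. The lower genes were Ifit3, Mx2, Parp14, Ifit1 and Usp18, with ratios of 0.451, 0.464, 0.532, 0.572 and 0.649. The higher genes were Bst2, a membrane protein that tethers virus particles (126.5 and 229 FPKM), and Lgals3bp, a secreted glycoprotein (97.0 and 154 FPKM). The rule uses 1 FPKM added, so Mx1, Cmpk2 and Oas3, with plain ratios of 0.583, 0.638 and 1.56, fell short. With 0.1 FPKM added 7 were lower and 3 higher, and all rows were not counted with that pseudocount. The authors' deposited table called Oas3 (q-value 0.0323) but not Lgals3bp (0.201). With equal summed FPKM 18 were lower and 0 higher. Under that scaling 546 of all rows were lower and 204 higher, against 61 and 387 at the authors' scaling. With the trend of ratio with level subtracted 4 were lower and 1 higher, and all rows were not counted at that setting. Stat2 and Irf9, whose complex acts on such genes, had ratios of 0.813 and 0.842. The 5 lower targets were picked by the 1.5-fold rule, which neither factor reached at the authors' scaling. That these 5 had lower ratios than both factors follows from that choice.

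Of 21 genes known to respond to Irf1 or to gamma-activated signalling, 19 passed, 13 below 0 and 6 above. Their median was -0.14, beside -0.021 over all rows, whose split by sign was not counted. By the 1.5-fold rule 2 were higher and 1 lower, beside 3.28% and 0.517% of all rows. With equal summed FPKM 1 was higher and 5 lower, where 204 of all rows were higher and 546 lower. B2m, the invariant MHC class I subunit (234 and 481 FPKM), and H2-K1, a heavy chain (106 and 159 FPKM), were higher, the latter with a ratio of 1.51. Neither was past the rule after the trend with level was subtracted. Igtp, an interferon-inducible GTPase, was lower (20.3 and 11.7 FPKM). Irf1 itself had a ratio of 0.936 and was not past the rule.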

How the data were processed

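Poly(A)-selected RNA of C2C12 myoblasts was sequenced, 1 library per condition. Values are FPKM per gene that the authors estimated with Cuffdiff, per the file headers, and the p-value and q-value columns are those of the authors' own deposited test. Per the submitters' processing notes, the tools included Cuffdiff 2.0.4, Cufflinks 2.1.1 and TopHat2 2.0.4, and the build was mm9. For scaling between libraries, annotation and strand, nothing is stated in the sources at hand. Both deposited copies of the table were identical. The first FPKM column was taken as siNC and the second as siLinc-Yy1, the order in the header. For rows above 0 in both libraries and without status FAIL, the deposited fold change and the FPKM ratio differed by at most 2.35e-05 (log2). Starts were raised by 1 to count from 1.

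Log2 ratios used a pseudocount of 1 FPKM, which understates changes of low genes, and a filter on a mean of at least 1 FPKM. Without replicates no test was run. Depth was read from receptor genes of 800 to 1100 bases. Under 6 fragments, whole values within 0.02 fragments made up 57.4% (siNC, 585 rows) and 46.2% (siLinc-Yy1, 494 rows), so these depths are approximate, no count model was fitted, and the intervals of the ratios share that limit. Ends lost to fragment length were not counted, which makes these depths lower limits. Scripts used Python 3.11.15, pandas 2.3.3 and scipy 1.17.1 and were tested on simulated data.

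Named genes were the 9 members, the lincYy1 row and, per list, all genes at least 1.5-fold changed or else the 2 most abundant and the 2 with the largest absolute log2 ratio, and the highest and lowest marker of each cell type. Others are marked in the text or serve as landmarks. Some genes that the rule takes are not reported here. The members and lists were chosen with earlier results of these data known.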

Additional observations from a re-analysis of the deposited data

How the results depend on the processing

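No member was at least 1.5-fold higher or lower with pseudocounts of 0.1 or 5 FPKM, without a filter, at a mean of at least 5 FPKM, among rows with status OK, after centring, after subtraction of a running median (150 rows on each side), at 2-fold or by the authors' calls. With equal summed FPKM 1 member was lower. Given the main values, most of the other settings could not take a member past the rule. Filters leave a member's ratio unchanged, 2-fold is stricter, and no pseudocount takes a ratio beyond the plain one, which fell short of 1.5-fold. Centring subtracts only the median of all rows, -0.021. Equal sums, the trend and the authors' calls were thus the settings that could have changed the count. The median of the members was 0.038 with 5 FPKM added, 0.068 after centring, -0.0055 less the trend and -0.26 with equal sums. Pathway genes lower, 1 at the main settings, were 0 with 5 FPKM added, centring, the trend subtracted or 2-fold, and 2 with equal sums. Type I target genes lower, 5, were 3 with 5 FPKM added, 18 with equal sums and 1 at 2-fold. Those higher, 2, were 0 with equal sums, 1 less the trend and 0 at 2-fold. Irf1 and gamma-activated targets higher, 2, were 1 with 5 FPKM added, 1 with equal sums, 0 less the trend and 1 at 2-fold. Those lower, 1, were 2 with 0.1 FPKM added, 5 with equal sums and 0 at 2-fold. With equal sums 204 of all rows were higher and 546 lower, against 387 and 61 at the main settings. At 2-fold 1.39% of all rows were higher and 0.178% lower. For the other settings all rows were not counted, and why each count moved was not tested. Each member's log2 ratio stayed inside its counting interval under 7 of 8 alternatives and left it with equal sums. The settings without a filter, at a mean of at least 5 FPKM and among status OK rows only change which rows are kept. They cannot move a member's ratio, so staying inside was fixed in advance for them. Centring shifts every member by the same small constant, and the pseudocounts barely move genes at these levels. Equal sums shift every member by a similar amount, larger than its interval allows. Subtraction of the trend was thus the only one of the 8 whose outcome was open. No paired analysis was possible because each condition has 1 library. With 1 kb counted for each gene, Tyk2 had the widest interval. Real transcript lengths could change that order, and culture variation was not measured.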

Other observations

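The ISRE letters searched in the promoters of the signalling genes were also counted in the promoters of the target genes, as a description. Of 35 type I interferon target genes, 26 had a window in the RefSeq table, and 11 of these (42.3%) held the letters, beside 3.58% of 8218 genes past the filter. The target lists were drawn from knowledge of interferon biology, so this share is no independent result. The 11 genes with a match had a median log2 ratio of -0.22, from -1.12 (Ifit3) to 0.85 (Bst2), and the 15 without a match -0.26, from -0.51 to 0.66. Genes with the same element thus stood at both ends, with Ifit3 and Ifit1 lower and Bst2 higher. Of the 17 Irf1 and gamma-activated target genes with a window, 8 held the ISRE letters. Of these 8, 7 were below 0, with a median log2 ratio of -0.24, from -0.75 (Igtp) to 1.04 (B2m). Of the 8 without a match and past the filter, 5 were above 0 and 3 below, with a median of 0.16. Whether the match matters was not tested.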
